A study of Caenorhabditis elegans with 18 samples.

Results

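In small RNA libraries from early embryos of the nematode Caenorhabditis elegans, 245 of 20973 windows of 1 kb held more reads in worms lacking met-2 than in wild type while both other single mutants stayed under 1.5 times the wild-type level. The windows were chosen by group means of scaled reads, which are reads divided by a factor for each library that removes differences in depth. A window was kept when the met-2 mean was at least 20 scaled reads and at least 2.5 times the N2 mean, and when the nrde-3 and set-25 means were both below 1.5 times N2. The height in met-2 and the upper limit on nrde-3 and set-25 were therefore fixed by the choice, and they are given as a description with no test. Neither double mutant entered the choice.

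Small RNA came from embryos before the bean stage, taken from worms grown for 60 to 65 h from synchronised first larvae. There were 3 libraries for each of 6 strains. The wild type was N2 (Bristol), and the single mutants carried nrde-3(tm1116) on chromosome X, met-2(n4256) on III or set-25(n5021) on III. The same alleles were joined in met-2;nrde-3 and set-25;nrde-3, called the met-2 double mutant and the set-25 double mutant. Each mutant group is thus 1 strain with 1 allele of each gene, and no rescue of an allele was among the samples. The protocol speaks of 2 biological replicates although each strain has libraries numbered 1 to 3, so spreads and p-values measure the difference between these libraries, which may be technical.

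NRDE-3 is an Argonaute protein of somatic cells that binds secondary small interfering RNAs and carries them into the nucleus, where it acts on nascent transcripts. MET-2 and SET-25 are methyltransferases for lysine 9 of histone H3. MET-2 places the lower methylation states and SET-25 the highest one, and both marks are known for silencing repeats in worm embryos. Secondary small RNAs of the worm are made by RNA-dependent RNA polymerases on transcripts as templates and carry a triphosphate at their start. The enzyme treatment of the RNA (TAP) lets such molecules be ligated and sequenced.

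The table covered all of chromosome I and the first 5.9 Mb of chromosome II in genome build ce10, with reads of both strands together in bins of 20 bp. The libraries held 1680028 to 4384593 reads there. Reads reached 11.33% to 17.86% of the bins in most libraries but 5.76% and 7.19% in replicates 1 and 2 of the met-2 double mutant, where 19 and 8 of the 245 windows had no read. Windows carry no gene names, since the annotation at hand was of another build. The mutated genes lie on chromosomes III and X, outside the regions covered, so neither the genotypes nor the embryonic tissue could be checked against their genes.

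The chosen windows together took up 6.656%, 7.503% and 6.286% of all reads in the met-2 libraries. Their share was 1.698% ± 0.096 in N2, 1.439% ± 0.206 in nrde-3 and 1.114% ± 0.103 in set-25 (SD, n = 3). It was 1.739% ± 0.259 in the met-2 double mutant and 1.207% ± 0.197 in the set-25 double mutant. Every met-2 library thus lay above every library of the other strains, both double mutants included. In RNA from whole embryos, a change in the number of cells that make these small RNAs and a change in the amount per cell cannot be told apart.

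The median level over the windows was 41.4 scaled reads in N2 and 198 in met-2, with a range of 20.1 to 8747 in met-2. It was 40.3 in nrde-3, 41.1 in set-25, 45.3 in the met-2 double mutant and 53.0 in the set-25 double mutant. By library, the median ratio to the N2 mean was 3.609, 4.135 and 4.107 in met-2 and between 0.966 and 1.192 in the 15 others. The median coefficient of variation between libraries was 12.6% in N2, 9.7% in met-2 and 28.1% in the met-2 double mutant, so single windows were measured less closely in that double mutant.

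**Figure D1:**
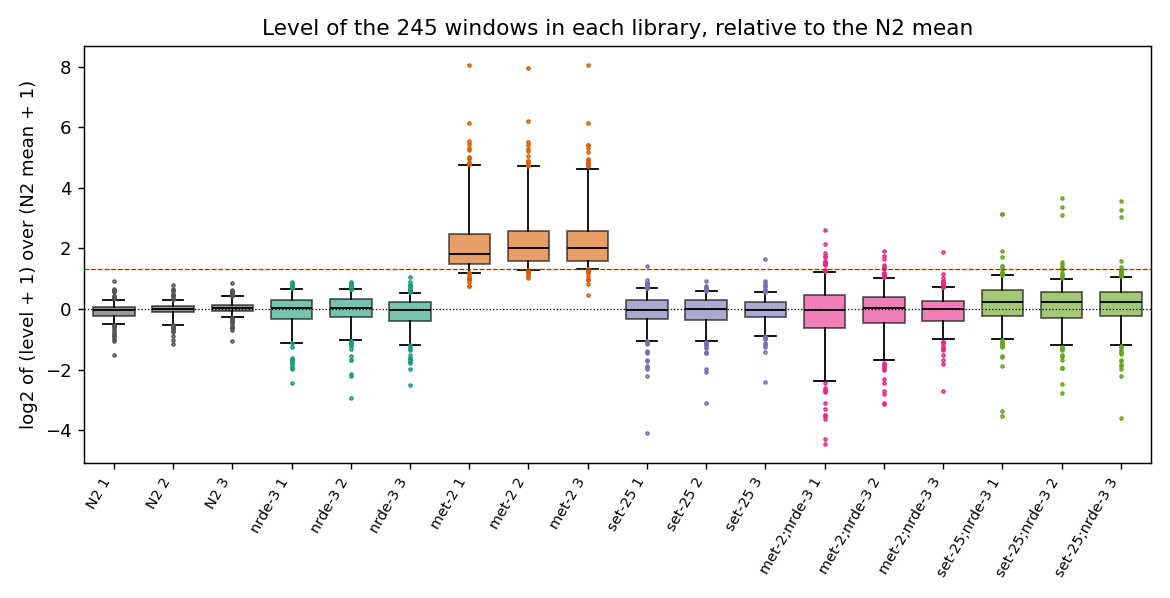
Level of the 245 windows in each of the 18 libraries on the vertical axis, as log2 of (level + 1) over (N2 mean + 1). Boxes span the quartiles, whiskers the middle 90% and points the windows beyond; the dotted line marks the N2 mean and the dashed line a ratio of 2.5, and the met-2 libraries stand alone, with median ratios of 3.609, 4.135 and 4.107.

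The ratio of met-2 to N2 had a median of 3.98 (quartiles 2.98 and 6.37) and reached 279.18. It was at least 10 in 35 windows, from 4 to under 10 in 86 and under 4 in 124, so many windows lay close above the limit of 2.5. Reads were concentrated in few windows, since the 53 with a met-2 mean of at least 1000 held 81.3% of the summed met-2 level and the 10 highest held 28.9%. Another 88 windows had a met-2 mean under 100.

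The limits of the choice passed through a continuous range of values. Just inside were chrI:2994001-2995000, chrI:7019001-7020000 and chrI:12928020-12929019, with met-2 to N2 ratios of 2.5, 2.51 and 2.51. Just outside were chrI:4461001-4462000, chrI:6004001-6005000 and chrI:4460001-4461000, with ratios of 2.49, 2.49 and 2.47. A total of 401 windows met both conditions on met-2, and 156 of them were left out for a high level in another single mutant. Of these, 48 were at least 1.5 times N2 in nrde-3 alone, 77 in set-25 alone and 31 in both. The median ratio of met-2 to N2 in the 155 of them with N2 reads was 6.09, above that of the chosen windows. Their median ratio to N2 was 1.40 in the met-2 double mutant and 1.73 in the set-25 double mutant.

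By position, 194 of the windows lay on chromosome I and 51 on the covered part of chromosome II. These were 4.23% and 3.83% of the windows with a met-2 mean of at least 20 on each chromosome. On chromosome I the share was 4.03% in the first 5 Mb, 3.35% from 5 to 10 Mb and 5.57% beyond 10 Mb. Megabase by megabase, the share was highest between 3 and 4 Mb of chromosome II, with 18 windows (9.09%). Next came chromosome I between 14 and 15 Mb with 19 windows (7.72%) and between 12 and 13 Mb with 17 (7.52%). The next megabase of chromosome II, from 4 to 5 Mb, held 3 windows (1.38%). The windows were thus spread over all the sequence covered, with every megabase holding some.

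Adjoining windows were often chosen together. The 245 windows formed 167 runs, of which 117 were single windows and 50 held 128 windows between them. There were 35 runs of 2, 9 of 3, 3 of 4, 2 of 5 and 1 of 9 windows. Neighbouring windows share transcripts and small RNA clusters, so they are not independent loci.

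The longest run, chrI:14885020-14894019, held 18.5% of the summed met-2 level of all chosen windows. Its 9 windows together had 5387, 5429 and 5578 scaled reads in the N2 libraries and 39778, 43074 and 44301 in met-2. They had 5831, 5610 and 5841 in nrde-3 and 7012, 6802 and 6837 in set-25. The levels were 7454, 7715 and 6508 in the met-2 double mutant and 8560, 8423 and 8279 in the set-25 double mutant. The met-2 libraries stood far above the rest. Every library of nrde-3, set-25 and both double mutants also lay above every library of N2, with nrde-3 the nearest to N2. Within the run the met-2 to N2 ratio went from 12.96 in the first window through 15.42 in the sixth down to 2.83 in the last. The N2 level was highest in the second last window, at 1148 ± 48.8, where the ratio was 2.84.

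The run of 3 windows with the highest met-2 level was chrI:5983001-5986000. It held 667, 738 and 666 scaled reads in N2 and 17362, 18246 and 17867 in met-2. The levels were 670, 521 and 643 in the met-2 double mutant and 683, 579 and 659 in the set-25 double mutant. Libraries of nrde-3 held 633, 578 and 753, and those of set-25 held 729, 689 and 733. All 15 libraries other than met-2 thus lay between 521 and 753.

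The single window with the most met-2 reads was chrI:5299001-5300000. It held 117, 122 and 127 scaled reads in N2 and 8667, 8984 and 8590 in met-2, which is a ratio of 71.62 on 548 and 30883 reads. In met-2;nrde-3 it held 69.6, 107 and 108, and in the set-25 double mutant 98.1, 102 and 90.3. All 3 libraries of both double mutants were below the lowest N2 library.

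The largest ratio belonged to chrI:7137001-7138000, which was nearly empty in N2. It held 10.1, 13.02 and 15.2 scaled reads in N2 and 3662, 3413 and 3613 in met-2. The level was 23.8, 14.6 and 18.4 in set-25, 20.9, 4.36 and 14.7 in the met-2 double mutant and 20.2, 11.1 and 10.9 in the set-25 double mutant. Outside met-2 all groups overlapped with N2 in this window. Both windows before it, chrI:7135001-7136000 and chrI:7136001-7137000, had met-2 to N2 ratios of 568.79 and 431.26, and they missed the choice through set-25 to N2 ratios of 2.81 and 2.22. Those rest on a few N2 reads, with set-25 levels of 12.9 to 22.4 scaled reads, so the cutoff split a stretch of similar height in met-2.

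Large ratios were also found at windows with hardly any reads in the other strains. At chrI:5432001-5433000 the 3 N2 libraries held 4 reads in all and the met-2 libraries 189, or 50.2, 55.0 and 55.8 scaled reads. At chrI:8825001-8826000 they held 6 and 253 reads, and at chrI:4851001-4852000 5 and 207. The next window, chrI:4852001-4853000, held 9 reads in N2 and 327 in met-2. With so few N2 reads these ratios, 61.19, 50.50, 49.33 and 50.14, are loosely fixed by counting alone. In the run chrI:4851001-4854000 the met-2 libraries held 189, 181 and 212 scaled reads, against at most 8.7 in any of the other 15 libraries.

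On chromosome II the largest ratio was 42.18, at chrII:4798017-4799016. That window held 13.4, 8.49 and 8.58 scaled reads in N2 and 448, 431 and 407 in met-2. The levels were 5.22, 9.82 and 12.96 in the met-2 double mutant and 13.4, 8.10 and 10.9 in the set-25 double mutant, so both double mutants overlapped with N2. The longest runs of that chromosome were less steep. The run chrII:2215017-2220016 held 256, 225 and 235 in N2 and 735, 876 and 908 in met-2, with 278, 163 and 199 in the met-2 double mutant and 314, 312 and 293 in the set-25 double mutant. The run chrII:3942017-3947016 held 74.7, 73.0 and 90.5 in N2, 356, 387 and 397 in met-2, 19.1, 74.2 and 70.0 in the met-2 double mutant and 48.4, 57.7 and 56.6 in the set-25 double mutant. In this last run set-25;nrde-3 lay below N2 in every library, and met-2;nrde-3 replicate 1, one of the libraries with few bins covered, stood below the other 2 libraries.

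**Figure D2:**
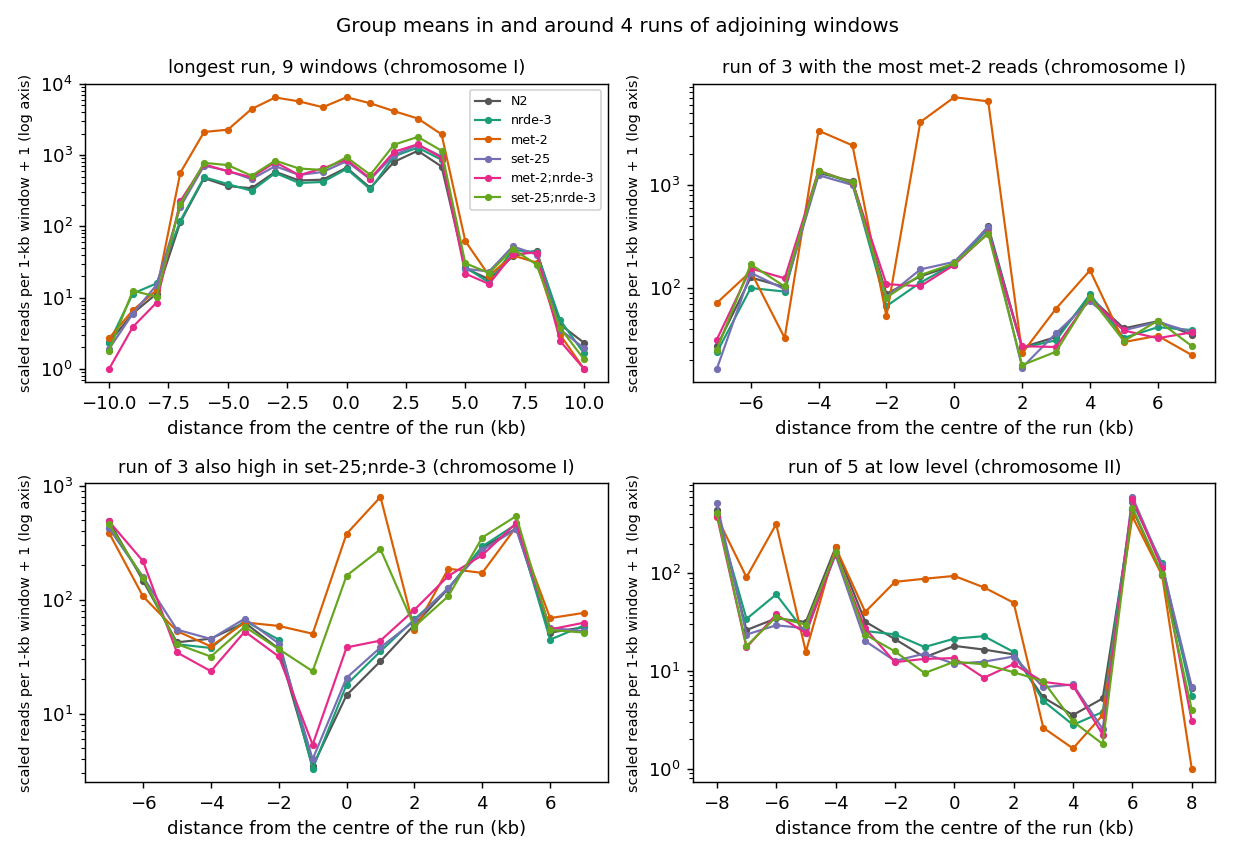
Mean scaled reads per 1-kb window + 1 on a log axis against the distance from the centre of the run in kb, for the 6 groups in and around 4 runs of chosen windows. In 3 panels met-2 alone stands above the rest, while in the run of 3 at lower left set-25;nrde-3 is also high, with 391, 509 and 478 scaled reads against 49.5, 39.6 and 42.3 in N2.

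Around the chosen windows the higher level in met-2 declined over a few kb. Ratios here had 1 added to both means and covered windows with a mean of at least 5 scaled reads in N2 or met-2. By this measure the chosen windows themselves had a median met-2 to N2 ratio of 3.86. Median met-2 to N2 ratios were 2.55 and 2.5 in the windows directly before and after. They were 1.5 and 1.42 when neighbours that were themselves chosen were left out. At a distance of 5 kb the medians were 1.13 and 1.08. Both double mutants had medians between 0.97 and 1.10 at each distance from 1 to 5 kb, and between 0.93 and 1.07 when chosen neighbours were left out.

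Within a window a few bins held much of the reads. The fullest 20-bp bin held a median of 22.1% of the met-2 reads of a window (quartiles 14.4% and 33.5%), and 4 of 50 bins were enough for 50% of the reads in the median window. In N2 the fullest bin held a median of 20.9% in the 232 windows with at least 20 reads. Of the chosen windows, 29 (11.8%) had at least 50% of their met-2 reads in 1 bin, against 309 of 5668 (5.5%) other windows with a met-2 mean of at least 20. Evenly filled windows, with under 10% in the fullest bin, numbered 14 (5.7%) against 277 (4.9%). These shares were not tested against each other, since neighbouring windows are not independent.

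**Figure D3:**
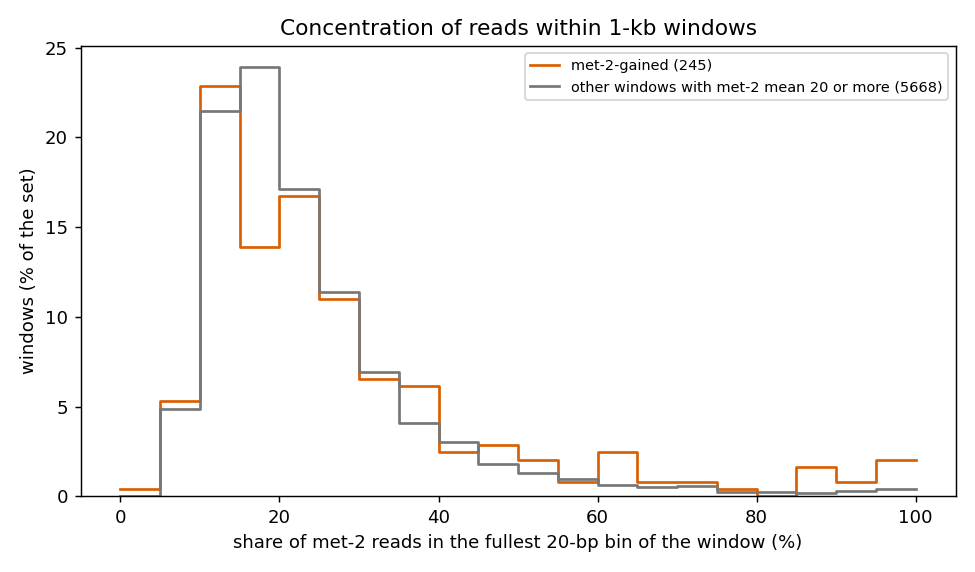
Share of met-2 reads in the fullest 20-bp bin of a window, in steps of 5 percentage points on the horizontal axis, as a percentage of the 245 chosen windows and of the 5668 other windows with a met-2 mean of at least 20. Both distributions overlap widely, and at least 50% lay in 1 bin in 11.8% of the chosen and 5.5% of the other windows.

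The most point-like window was chrI:14503020-14504019, where 99.8% of met-2 reads lay in a single bin. The fullest bin held 98.0% of reads in N2 and 94.6% to 98.0% in the other groups. Its levels were 124, 83.2 and 74.0 in N2, 428, 339 and 428 in met-2, 73.0, 82.9 and 110 in the met-2 double mutant and 149, 134 and 129 in the set-25 double mutant. Windows chrII:1203017-1204016 and chrII:3874017-3875016 were alike in shape, with 99.4% and 99.1% in 1 bin and met-2 to N2 ratios of 2.69 and 2.86. In each of the 3 windows the fullest bin was the same one in all 18 libraries.

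At the other extreme, reads at chrII:1962017-1963016 filled all 50 bins in met-2, with 3.8% in the fullest. Its levels were 48.7, 62.9 and 48.9 in N2, 443, 557 and 453 in met-2, 59.1, 87.3 and 75.1 in the met-2 double mutant and 121, 139 and 126 in the set-25 double mutant. Here set-25;nrde-3 lay above N2 and below met-2 in every library. The set-25 libraries, with 86.3, 67.1 and 68.4, also lay above N2, and the nrde-3 libraries, with 34.1, 36.1 and 29.0, lay below it. Broad windows were also chrI:14883020-14884019, with 6.1% in the fullest bin and a ratio of 4.45, and chrI:5975001-5976000, with 6.9% and 4.58.

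The added reads in met-2 fell mostly on bins that had reads in N2 already. In the median window, bins with no N2 read held 3.2% of the added reads (quartiles 0.4% and 12.9%). The median was 11.7% in the other windows with a met-2 mean of at least 20. Added reads were counted in each bin where met-2 exceeded N2, also in windows with no higher met-2 total. The contrast with the other windows therefore partly follows from the choice. Of 1524 bins with at least 5 scaled reads in N2 inside the chosen windows, 1302 (85.4%) were at least 2 times higher in met-2, against 7.0% of such bins in the other windows, a difference that follows from the choice. The profile of reads over the bins of a window overlapped by a median of 81.5% between met-2 and N2 in the 118 windows with at least 200 reads in both groups. The overlap of met-2 with met-2;nrde-3 was 77.6% over 89 windows, and with set-25;nrde-3 83.0% over 97. In the other windows with a met-2 mean of at least 20, the medians were near these. They were 81.4% with N2, 76.3% with met-2;nrde-3 and 81.5% with set-25;nrde-3.

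At the scale of bins, the runs differed in how far gaps broke up the reads. In chrI:5983001-5986000 the part between the first and the last bin with at least 10 scaled met-2 reads was 2700 bp long. It held 5 gaps, each of at least 3 bins under 5 scaled reads, the longest 140 bp, and all gaps together held 0.06% of the met-2 reads and 0.17% of the N2 reads there. At its right edge the level went from 878 scaled reads in the last 200 bp inside to 2.6 in the next 200 bp. The longest run had 1 gap of 60 bp in 8820 bp. In chrI:5298001-5301000, by contrast, 29 of 103 bins lay in gaps, which held 0.27% of the reads in met-2 and 10.8% in N2. Gaps were defined by the met-2 level, so a low met-2 share in them follows from the definition. The profiles of met-2 and N2 overlapped by 69.8% in chrI:5983001-5986000 and by 52.8% in chrI:5298001-5301000. For comparison, single met-2 libraries overlapped with each other by 89.4% to 93.3% in chrI:5298001-5301000, whereas the overlap with N2 was between group means. N2 held 1421 reads there against 40188 in met-2, and the effect of depth on the overlap was not tested.

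A repeating profile at chrI:4342001-4355000 held 9 of the chosen windows. In every group the profile was most like itself when shifted by 144 bins, or 2880 bp, with correlations across bins of 0.749 to 0.809 on the log2 scale. Bins are not independent, and the shift was searched from 1000 to 6000 bp. The 5 units of that length held 1522 to 1553 scaled reads each in met-2, 547 to 582 in N2, 606 to 646 in the met-2 double mutant and 799 to 829 in the set-25 double mutant. Units held 320 to 358 in nrde-3, below N2, and 651 to 678 in set-25, above N2. The met-2 double mutant was thus further above nrde-3 than above N2 in each unit. The ratios of met-2 to N2 in the units were 2.61 to 2.83, near the limit of 2.5, and units of the same strain differed little. How reads that map to several places were assigned is not given in the sources used here, so whether these windows share reads was not tested, and they are not 9 independent loci.

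**Figure D4:**
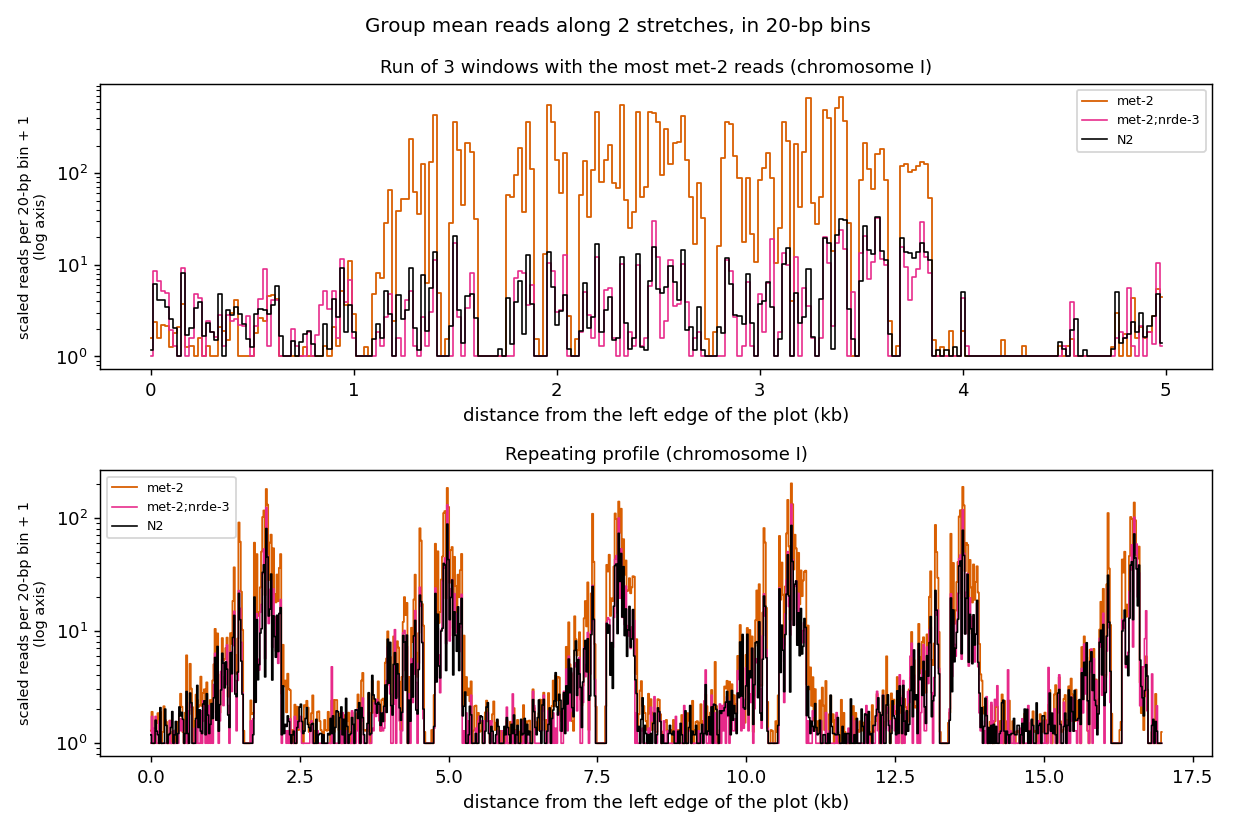
Mean scaled reads per 20-bp bin + 1 on a log axis along the run of 3 windows with the most met-2 reads (top) and along the repeating profile (bottom), for met-2, met-2;nrde-3 and N2, against the distance in kb from the left edge of the plot. At the top met-2 forms blocks with gaps over 2700 bp, and at the bottom peaks return every 2880 bp in all 3 groups.

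In the double mutants the question was whether the higher level of met-2 was seen when nrde-3 was lost as well, or when set-25 replaced met-2 in that pair. In met-2;nrde-3 the median ratio to N2 over the 245 windows was 1.01 (quartiles 0.80 and 1.22), and 182 windows (74.3%) lay within 1.5-fold of N2, against 79.7% of all 7631 windows with a group mean of at least 20. All 3 met-2;nrde-3 libraries lay below all 3 met-2 libraries in 238 windows, and the ranges overlapped in the remaining 7. Of the 7631 windows 23.5% lay below met-2 in this way, and the choice by the met-2 level fixes much of the count. Against N2, its libraries lay all above in 46 windows (18.8%), all below in 32 (13.1%) and overlapped in 167. Of the 7631 windows 11% lay all above and 11.4% all below. Replicates 1 and 2, in which fewer bins held reads, had median ratios to the N2 mean of 0.98 and 1.019, and replicate 3 had 1.003. The median was therefore much the same in the library with usual coverage.

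In set-25;nrde-3 the median ratio to N2 was 1.22 (quartiles 0.88 and 1.48), and 155 windows (63.3%) lay within 1.5-fold of N2, against 78.4% of the 7631 windows. Its libraries lay all below those of met-2 in 241 windows, as in 25% of the 7631. They lay all above N2 in 94 windows (38.4%), all below in 33 (13.5%) and overlapped in 118. Of the 7631 windows 19% lay all above N2 and 16.1% all below. Scaled by library totals alone, the median ratio was 0.713, below N2 instead of above, while that of the met-2 double mutant was 0.979. The level of the set-25 double mutant relative to N2 thus depends on the scaling.

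The nearness of the met-2 double mutant to N2 was alike in windows with a small and a large difference in met-2. The median ratio of the met-2 double mutant to N2 was 1.01 in the 35 windows with a met-2 to N2 ratio of at least 10, 1.02 in the 86 from 4 to 10 and 1.00 in the 124 under 4. In set-25;nrde-3 the medians were 1.03, 1.28 and 1.19. These ratios share the N2 libraries that served in the choice and carry no test. The nearness to N2 was not particular to the chosen windows. Of the 7631 windows with a group mean of at least 20, met-2 reached 2.5 times N2 at 5.31%. It was at or under N2 divided by 2.5 at 18.45%. In met-2;nrde-3 these shares were 1.56% and 1.44%.

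Few windows were far from N2 in a double mutant. At least 2.5 times the N2 mean was reached by 3 windows in the met-2 double mutant and by 5 in the set-25 double mutant. Among all 7631 windows with a group mean of at least 20, these limits were passed by 1.56% and 1.91%, close to the shares of the chosen windows (1.22% and 2.04%). In the opposite direction, 10 windows in the met-2 double mutant and 7 in the set-25 double mutant were at or under N2 divided by 2.5, several of them with few reads. These were 4.08% and 2.86% of the chosen windows, against 1.44% and 1.65% of the 7631.

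The run chrI:10629020-10632019 gave 3 of the 5 windows in the set-25 double mutant and 1 of the 3 in the met-2 double mutant. Its 3 windows together held 49.5, 39.6 and 42.3 scaled reads in N2 and 1237, 1247 and 1175 in met-2. They held 53.4, 65.4 and 60.2 in set-25 and 391, 509 and 478 in the set-25 double mutant, so set-25;nrde-3 stood between. In met-2;nrde-3 the levels were 130, 58.9 and 63.0, above N2 in each library and below set-25;nrde-3 in each. The set-25;nrde-3 to N2 ratios of its windows were 9.25, 11.92 and 9.89. The read profile of set-25;nrde-3 overlapped with that of met-2 by 85.5%, with both taken as group means. Single met-2 libraries, a noisier measure, overlapped with each other by 85.4% to 89.5%, so the values are not like for like.

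A window higher in both double mutants was chrII:1300017-1301016. It held 4.20, 3.40 and 7.92 scaled reads in N2, 47.1, 50.7 and 30.2 in met-2, 19.1, 18.5 and 21.6 in the met-2 double mutant and 12.1, 15.2 and 17.4 in the set-25 double mutant. The ranges of N2 and both double mutants did not overlap. The opposite was seen at chrI:12506020-12507019, with 197, 266 and 274 in N2 and 823, 953 and 990 in met-2. There set-25 held 13.6, 27.5 and 45.9, met-2;nrde-3 46.9, 37.1 and 37.1 and set-25;nrde-3 22.8, 35.4 and 19.6, all below N2. Both windows were named after their values were seen.

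Neither double mutant was used in the choice, so their difference was tested in a model of all 18 libraries over 10730 windows (edgeR's quasi-likelihood test with Benjamini-Hochberg adjustment). All 245 chosen windows were tested, and 230 would have passed the filter on low counts without the met-2 libraries. Higher in the met-2 double mutant than in the set-25 double mutant at an adjusted p under 0.05 were 8 of them (3.27%), against 3.28% of all windows tested. Lower were 33 (13.5%), against 3.58% of all windows, and 204 did not pass the test. In both directions together 41 were called (16.7%), against 6.86%. The median log2 difference of the chosen windows was -0.22 (quartiles -0.56 and 0.13), and that of all windows tested was -0.03. Of the 41 windows called, 16 differed at least 2-fold. The comparison with all windows depended on the filter. With a minimum count of 100, a filter that also counts met-2 reads, 150 chosen windows were among 3126 tested. Of these 150, 9 were higher and 40 lower, with 378 and 380 of all 3126. The lower share was then a smaller multiple of that of all windows, and the higher share was under that of all windows.

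The split between directions depended on the scaling. With library totals alone as the scale, which moved the median of all windows by 0.72 on the log2 scale, 81 chosen windows were higher and 4 lower, and of all windows 3582 were higher and 39 lower. Without met-2;nrde-3 replicates 1 and 2 the chosen windows called were 4 higher and 17 lower, and of all windows 171 were higher and 174 lower. Without set-25;nrde-3 replicate 2 the chosen windows called were 5 and 20, with 185 and 240 of all windows. Without its replicate 3 they were 6 and 21, with 209 and 265 of all. A fit of only the 6 libraries of both double mutants tested 208 of the chosen windows and called 4 higher and 7 lower, with 128 and 87 of all windows.

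**Figure D5:**
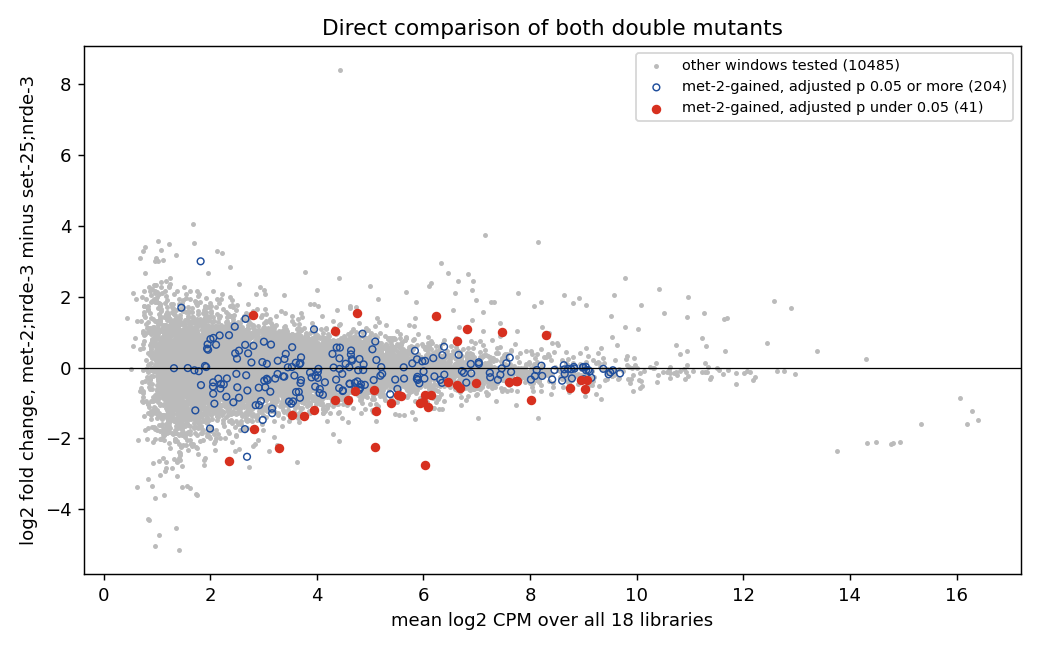
Log2 fold change of met-2;nrde-3 minus set-25;nrde-3 against the mean log2 CPM over all 18 libraries, for 10730 windows. Red points are the 41 chosen windows with an adjusted p under 0.05, of which 33 lie below 0, open circles are the 204 other chosen windows and grey points all other windows tested.

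Of the windows lower in the met-2 double mutant, the largest difference lay in the run chrI:10629020-10632019. At chrI:10631020-10632019 the level was 57.4, 37.1 and 33.7 scaled reads in the met-2 double mutant and 251, 297 and 278 in the set-25 double mutant, a log2 difference of -2.75 ± 0.16 (SE, edgeR adjusted p = 2.07e-12). The windows before it, chrI:10630020-10631019 and chrI:10629020-10630019, differed by -2.24 ± 0.25 and -2.65 ± 0.66 (edgeR adjusted p = 6.41e-07 and 0.0134). The last of these was not called without set-25;nrde-3 replicate 2 (-2.46) or replicate 3 (-2.50), or in the fit of the 6 libraries alone (-2.54).

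Elsewhere, chrI:5553001-5554000 held 0, 4.36 and 12.96 in the met-2 double mutant and 24.2, 35.4 and 41.3 in the set-25 double mutant, with 20.1, 15.9 and 19.1 in N2. Its difference was -2.28 ± 0.48 (edgeR adjusted p = 0.00305), with both double mutants outside the N2 range on opposite sides, and it was not called without met-2;nrde-3 replicates 1 and 2 (-1.40) or with the 6 libraries alone (-2.31). At chrII:834017-835016 the values were 13.9, 7.64 and 7.77 against 47.0, 27.3 and 19.6, a difference of -1.72 ± 0.49 (edgeR adjusted p = 0.0312). This window was not called without met-2;nrde-3 replicate 2 (-1.64) or set-25;nrde-3 replicates 1 (-1.34) or 2 (-1.82). Nor was it called without met-2;nrde-3 replicates 1 and 2 together (-1.98), with library totals as the scale (-0.95) or with the 6 libraries alone (-1.67).

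Of the windows higher in the met-2 double mutant, the one with the smallest adjusted p was the last one of chromosome I, chrI:15072020-15072423, which ends with the chromosome. It held 134, 143 and 135 scaled reads in the met-2 double mutant and 53.7, 49.6 and 46.8 in the set-25 double mutant, with 73.0, 107 and 96.4 in N2 and 891, 956 and 969 in met-2. The log2 difference was 1.46 ± 0.18 (edgeR adjusted p = 1.79e-06), and the double mutants lay on opposite sides of N2 in every library.

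At chrII:3969017-3970016 the levels were 165, 281 and 239 in the met-2 double mutant and 117, 93.1 and 115 in the set-25 double mutant, a difference of 1.10 ± 0.16 (edgeR adjusted p = 2.27e-05). All set-25;nrde-3 libraries were below N2 there, which held 270, 268 and 278. At chrI:13930020-13931019 the difference was 1.05 ± 0.25 (edgeR adjusted p = 0.00864), and this window was not called without set-25;nrde-3 replicate 2 (0.85), without met-2;nrde-3 replicates 1 and 2 together (0.94) or with the 6 libraries alone (1.08).

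The largest fold changes in this direction lost their call when single libraries were left out. At chrI:5875001-5876000 the met-2;nrde-3 libraries held 181, 74.2 and 44.0 scaled reads against 51.1, 25.3 and 22.8 in the set-25 double mutant, a difference of 1.54 ± 0.40 (edgeR adjusted p = 0.0182). Without met-2;nrde-3 replicate 1 it was 0.82 and not called, and it was not called without set-25;nrde-3 replicates 2 (1.36) or 3 (1.32). It fell to 0.44 without met-2;nrde-3 replicates 1 and 2 together, not called, and was 1.61 and not called with the 6 libraries alone. At chrI:7353001-7354000 they held 45.2, 27.3 and 12.1 against 6.72, 12.2 and 8.70, a difference of 1.5 ± 0.45 (edgeR adjusted p = 0.0433). Without replicate 1 of met-2;nrde-3 it was 0.99 and not called, and it was not called without replicate 2 (1.39) or without set-25;nrde-3 replicates 1 (1.33), 2 (1.75) or 3 (1.44). The call was also lost without met-2;nrde-3 replicates 1 and 2 together (0.35), with the 6 libraries alone (1.59) and with a replicate block (1.48).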

How the data were processed

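The values deposited by the authors are counts of reads in 20-bp bins for each library, both strands together. Per the labels and series text, adapters were removed and reads collapsed (FASTX-Toolkit), then mapped to ce10 (QuasR), with versions not given in the sources used here. A scaling to total reads and a split by read length are mentioned as well. The whole numbers with no length classes do not show either step, so they were used as unscaled counts. How a read over several bins was counted, and how reads with several places were assigned, is not given in the sources used here.

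Bins were summed into 1-kb windows, and scaling factors were medians of ratios over 4986 windows with at least 10 reads in all 18 libraries (Python 3.11.15 with numpy 2.4.6 and pandas 2.3.3, plots by matplotlib 3.10.9). Double mutants were compared with edgeR 4.0.16 under R 4.3.3, with data.table (version 1.17.8): filterByExpr with a minimum count of 10, TMM factors, 1 coefficient per group and glmQLFTest, with p-values adjusted by Benjamini-Hochberg over 10730 windows and a limit of 0.05. The test was checked on simulated data, with changes placed only in windows above the median level. It recovered 78% of 2-fold rises, 62% of 2-fold falls and 100% of 4-fold changes in either direction. A window not called can thus still differ 2-fold. The standard error of a log2 fold change is its size over the square root of F. Alternatives included RLE factors, library totals, DESeq2 1.42.0, other filters, only the 6 libraries of both double mutants, a replicate block and libraries left out. No replicates agreed within sampling noise.

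The windows named were the 10 highest in met-2, the 10 with the largest ratio to N2, the 3 longest runs, the 5 largest differences called in each direction between the double mutants, the 3 most and 3 least concentrated windows, and 3 on each side of the limit of 2.5. A part of these is printed, and a few others were chosen after their values were seen. The windows, the rule and the lists were chosen with earlier results of these data known. PCR reads are not independent molecules, so counting intervals would cover counting error only.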

Additional observations from a re-analysis of the deposited data

Results flagged for a closer look

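At 31 of the 245 windows, losing nrde-3 went with opposite changes in 2 backgrounds: all nrde-3 libraries lay above all N2 libraries, while all met-2;nrde-3 libraries lay below all met-2 libraries. The difference between the backgrounds was not tested, and the choice of windows with a high met-2 level fixes much of the second direction. These were 12.7% of the chosen windows, against 3.17% of the 7631 windows with a group mean of at least 20. Since met-2;nrde-3 lay below met-2 at 238 chosen windows but at 23.5% of the 7631, much of this contrast follows from the choice. The nrde-3 libraries lay all above N2 at 32 chosen windows and all below at 32 (13.1% each). For nrde-3 against N2 alone, the share over the 7631 windows was not counted. Both groups also entered the choice, so no conclusion is drawn from these counts. Between N2 and set-25 as backgrounds, all libraries lacking nrde-3 were higher over N2 and lower over set-25 at 3 windows (1.22%, against 0.773% of the 7631). The reverse was seen at 15 windows (6.12%, against 1.62%). The choice capped nrde-3 and set-25 relative to N2, a limit not set on the 7631 windows. Part of this contrast can therefore follow from the choice, and it was not tested. Among the named windows, the ratio of met-2;nrde-3 to met-2 was 0.054 at chrI:10631020-10632019 and 0.018 at chrI:12504020-12505019. It was 0.268, 0.435 and 0.468 at the last 3 windows of the longest run, chrI:14891020-14892019, chrI:14892020-14893019 and chrI:14893020-14894019. The ratios of nrde-3 to N2 in these 5 windows were 1.23, 1.27, 1.2, 1.11 and 1.24, all small.

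At 36 windows, losing met-2 went with opposite changes in 2 backgrounds: all met-2 libraries lay above N2, as the choice demands, while all met-2;nrde-3 libraries lay below all nrde-3 libraries. At 37 other windows all met-2;nrde-3 libraries lay above all nrde-3 libraries. The first pattern held at 14.7% of the chosen windows and 3.3% of the 7631, and the second at 15.1% and 2.1%, and the choice fixes the higher level in met-2 in both. Without regard to met-2 and N2, 11.8% of the 7631 windows lay below nrde-3 in met-2;nrde-3 and 11% above. The difference was not tested. Among the named windows, the ratio of met-2;nrde-3 to nrde-3 was 0.756 at chrI:5299001-5300000, 0.571 at chrI:5975001-5976000, 0.464 at chrI:7019001-7020000 and 0.194 at chrI:8825001-8826000. It was 0.333 at chrI:12504020-12505019, 0.686 at chrI:12928020-12929019, 0.595 at chrII:2219017-2220016 and 0.347 at chrII:3945017-3946016. Of these, chrI:8825001-8826000 held 6 reads in N2.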

How the results depend on the processing

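The number of windows chosen was 280 with TMM factors (244 shared with the 245), 226 with library totals (156 shared), 241 without the last 13 kb of chromosome I and 251 on a grid starting 500 bp later. It was 217 with a met-2 mean of at least 40, 121 with a ratio of at least 4, 156 with a stricter limit on nrde-3 and set-25 and 230 to 256 with a library left out in turn. Library totals gave median ratios to N2 of 0.979 for met-2;nrde-3 and 0.713 for set-25;nrde-3, and leaving out libraries gave 0.999 to 1.028 and 1.187 to 1.224. The share in the fullest bin was 27.68% with 40-bp bins and 21.95% to 23.18% with a met-2 library left out.

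Between the double mutants, library totals gave 81 windows higher and 4 lower, the 6 libraries of both alone 4 and 7, and a fit lacking met-2;nrde-3 replicates 1 and 2 gave 4 and 17. Leaving out each library in turn gave 5 to 9 higher and 20 to 49 lower, RLE factors 8 and 28, and DESeq2 8 and 43 with 218 windows tested. The causes were not tested. A replicate block gave 7 higher and 27 lower, and libraries of the same number did not deviate together (correlations of 0.033, -0.003 and 0.009), so the numbers were not taken as pairs. Over these alternatives, the calls of the 10 windows named between the double mutants were lost in 27 cases and kept in 118, and no direction turned. Counting error limits the windows with few reads.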
